A study of Homo sapiens with 30 samples.

Results

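Cells that received vesicles from epinephrine-stimulated cells (EV-Epinephrine) were compared with cells that received vesicles from TNF-stimulated cells (EV-TNF). The 6 libraries of these groups, 3 each, were taken by their labels from 30 libraries in 10 groups of 3, and every gene that passed a filter on low counts was tested. All libraries came from hCMEC/D3, a human brain microvascular endothelial line that was immortalised and is grown as a model of the blood-brain barrier. The vesicles were enriched from the medium of donor cells of the same line. EV-Epinephrine donors had been given 200 nM epinephrine, and EV-TNF donors 25 ng/mL tumour necrosis factor alpha. EV-IL1b donors had received 10 ng/mL interleukin 1 beta and EV-C5a donors 50 ng/mL of the complement fragment C5a, while EV-Control donors had stayed in serum-free medium only. The titles give 12 h for each group without saying whether, for vesicle groups, this is the time of exposure. The vesicle dose is not given in the sources used here. The direct groups used below, Epinephrine and TNF, were cells that took up the stimulus itself at those doses. A single cell line, and a single batch in the labels, limit what the groups stand for, and nothing says that replicates came from separate cultures, so p-values measure the spread between these libraries, which may be technical.

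Extracellular vesicles are membrane-bound particles that carry protein, lipid and RNA from the cell that sheds them and can alter transcription in a cell that takes them up. TNF binds receptors such as TNFRSF1A and switches on NF-kappaB, which drives adhesion molecules, chemokines and its own inhibitors in endothelium, and interferon-stimulated genes can follow. Epinephrine binds adrenergic receptors, some of which raise cyclic AMP, which acts through CREB on early genes such as FOSB, ATF3 and the NR4A nuclear receptors.

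The 6 libraries held 16643961 to 19276757 counts each, with scaling factors of 0.991 to 1.01. Replicate pairs differed by more than sampling noise, with a chi-square per gene of 2.04 to 2.35 in EV-Epinephrine and 3.41 to 4.73 in EV-TNF. Endothelial markers were present in both groups, and 5 of 24 differed between them, where 5.43% of all genes differed. CDH5 ran from 182 to 199 counts scaled to a library of 1e6 (CPM) in EV-Epinephrine and from 182 to 199 CPM in EV-TNF, and ERG from 77.3 to 80.2 and from 74.6 to 79.7 CPM. NOS3, EMCN and PLVAP, which many endothelial cells express, stayed below 1 CPM in all 6 libraries. AQP4 and S100B of astrocytes, AIF1 and P2RY12 of microglia and CD3E of T cells were at 0 counts in all 6, which at this depth allows up to 3 counts in a library.

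The larger differences between EV-Epinephrine and EV-TNF cells were mostly of genes lower in EV-Epinephrine: early response genes such as FOSB and ATF3, chemokines and cytokines such as CXCL8 and IL6, NF-kappaB inhibitors such as TNFAIP3, and interferon-stimulated genes such as IFIT2. Genes that were higher were changed less, and included the matrix gene FN1 and the chromatin protein gene HMGA1. Of 15918 genes tested, 365 were higher (2.29%) and 500 lower (3.14%) in EV-Epinephrine at an adjusted p under 0.05, 5.43% in all, by the quasi-likelihood test of edgeR with p-values adjusted by Benjamini and Hochberg. The median log2 fold change was 0.22 over the 365 and -0.26 over the 500, against 0.00376 over all genes tested. A change of more than 1 on the log2 scale was passed by 8 higher (0.0503%) and 45 lower genes (0.283%). The balance of all calls turned with the scaling, since 498 genes were higher and 422 lower with library totals alone, and 1935 genes (12.2%) were higher and 1919 (12.1%) lower without overlap between groups. The count of higher genes moved with single libraries: it was 187, 190 and 218 without EV-Epinephrine replicate 1, 2 or 3, and 197 and 220 without EV-TNF replicate 2 or 3. The count of lower genes was 326 without EV-Epinephrine replicate 1. The libraries used for the spread mattered as well. With only the 6 libraries in the fit 522 genes were higher and 728 lower, and with all 30 libraries 241 and 381.

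Most of the called genes placed EV-Epinephrine outside the range spanned by the means of EV-Control and EV-TNF. This was so for 312 of the 365 higher and 395 of the 500 lower genes, while for 53 and 105 genes the EV-Epinephrine mean lay between the other 2. EV-TNF against EV-Control did not pass for 230 of the 365 and 249 of the 500. Where those 2 groups are close, a gene called for differing from EV-TNF mostly falls outside their range. The placement of means was not tested. Against each of the 4 other vesicle groups, 106 genes (0.666%) were higher and 210 (1.32%) lower in EV-Epinephrine. Without EV-Epinephrine replicate 1, 2 or 3 or EV-TNF replicate 2 the count of higher genes was 60, 67, 60 and 69, and without EV-Epinephrine replicate 1 that of lower genes was 132. With library totals alone these counts were 159 and 176. For EV-TNF the same counts were 0 and 0 with edgeR (67 higher and 34 lower at an unadjusted p under 0.05, 1 and 0 with DESeq2). The EV-TNF counts also require a difference from EV-IL1b, so at the adjusted threshold they were close to fixed at 0. They do not show that EV-TNF lacked a response of its own. EV-TNF differed from EV-IL1b in 1 gene (0.00628%). This was HSPA5, the main chaperone of the endoplasmic reticulum, at a mean of 909 CPM in EV-TNF and 1020 CPM in EV-IL1b (log2 fold change -0.16, SE 0.03, adjusted p 0.0292 by edgeR). On the first 2 principal components of the vesicle libraries, which held 37.2% and 11.1% of the variance, EV-Epinephrine lay at 12.7 to 13 and 9.7 to 10.1. EV-TNF lay at 6.53 to 7.62 and -7.41 to -3.58, so the groups did not overlap on either component.

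Early response genes gave the largest falls among genes of at least 5 CPM in either group. FOSB, a partner of JUN in the AP-1 factor (chromosome 19, 45467995 to 45475179, plus strand, GRCh38), stood at 76.7, 89.6 and 129 CPM in EV-Epinephrine and at 248, 453 and 565 CPM in EV-TNF. EV-Control libraries held 389, 483 and 787 CPM of it, so the EV-Epinephrine libraries were below every library of both groups. The level was 4.30-fold lower than in EV-TNF (log2 fold change -2.10, SE 0.36, adjusted p 0.00606 by edgeR). With only the 6 libraries in the fit the adjusted p was 0.0665. ATF3, a stress-induced repressor of the ATF/CREB family (chromosome 1, 212565334 to 212620777, plus strand), stood at 107, 117 and 138 CPM in EV-Epinephrine and at 304, 416 and 469 CPM in EV-TNF. Its groups did not overlap either (3.29-fold, log2 fold change -1.72, SE 0.18, adjusted p 0.000163 by edgeR). Means in the other vesicle groups were 429 ± 59.3 CPM in EV-IL1b, 642 ± 49.6 in EV-C5a and 598 ± 70.2 in EV-Control (SD, n = 3 each), against 121 ± 16.2 CPM in EV-Epinephrine. In these bulk libraries fewer cells with a transcript and less of it per cell cannot be told apart.

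Of the 22 immediate-early genes tested, 12 fell in EV-Epinephrine against EV-TNF and none rose, where 3.14% of all genes fell. The list median was -0.57 against 0.00376 over all genes tested. EV-Epinephrine was below EV-TNF without overlap for 20 of the 22, where 12.1% of all genes showed this. For 11 of the 12 the EV-Epinephrine mean was below EV-Control as well. Of the list, 8 were lower than in each other vesicle group, which held for 1.32% of all genes. The number that fell was 5 without EV-Epinephrine replicate 1, 4 without EV-Epinephrine replicate 2 and 7 without EV-TNF replicate 3. KLF4, an endothelial transcription factor, held 78.4, 80.3 and 84.5 CPM in EV-Epinephrine and 135, 181 and 240 CPM in EV-TNF. The EV-Epinephrine values were close together and the EV-TNF values spread widely (log2 fold change -1.19, SE 0.23, adjusted p 0.0122 by edgeR). Its call was lost without EV-Epinephrine replicate 1 or 2 (adjusted p 0.0591 and 0.0535 by edgeR). IER3, an inhibitor of cell death, stood at 187 to 193 CPM in EV-Epinephrine and 282 to 322 CPM in EV-TNF (log2 fold change -0.65, SE 0.10, adjusted p 0.004 by edgeR). FOS itself did not pass (log2 fold change -1.64, SE 0.57, adjusted p 0.154 by edgeR). Its libraries held 179, 214 and 283 CPM in EV-Epinephrine, 468, 740 and 907 CPM in EV-TNF and 44.9, 106 and 361 CPM in EV-Control. The 2 groups were apart for FOS, and the control libraries spanned the EV-Epinephrine range. Without EV-Control replicate 1 or 3 in the fit FOS passed (adjusted p 0.0498 and 0.0185 by edgeR).

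**Figure D1:**
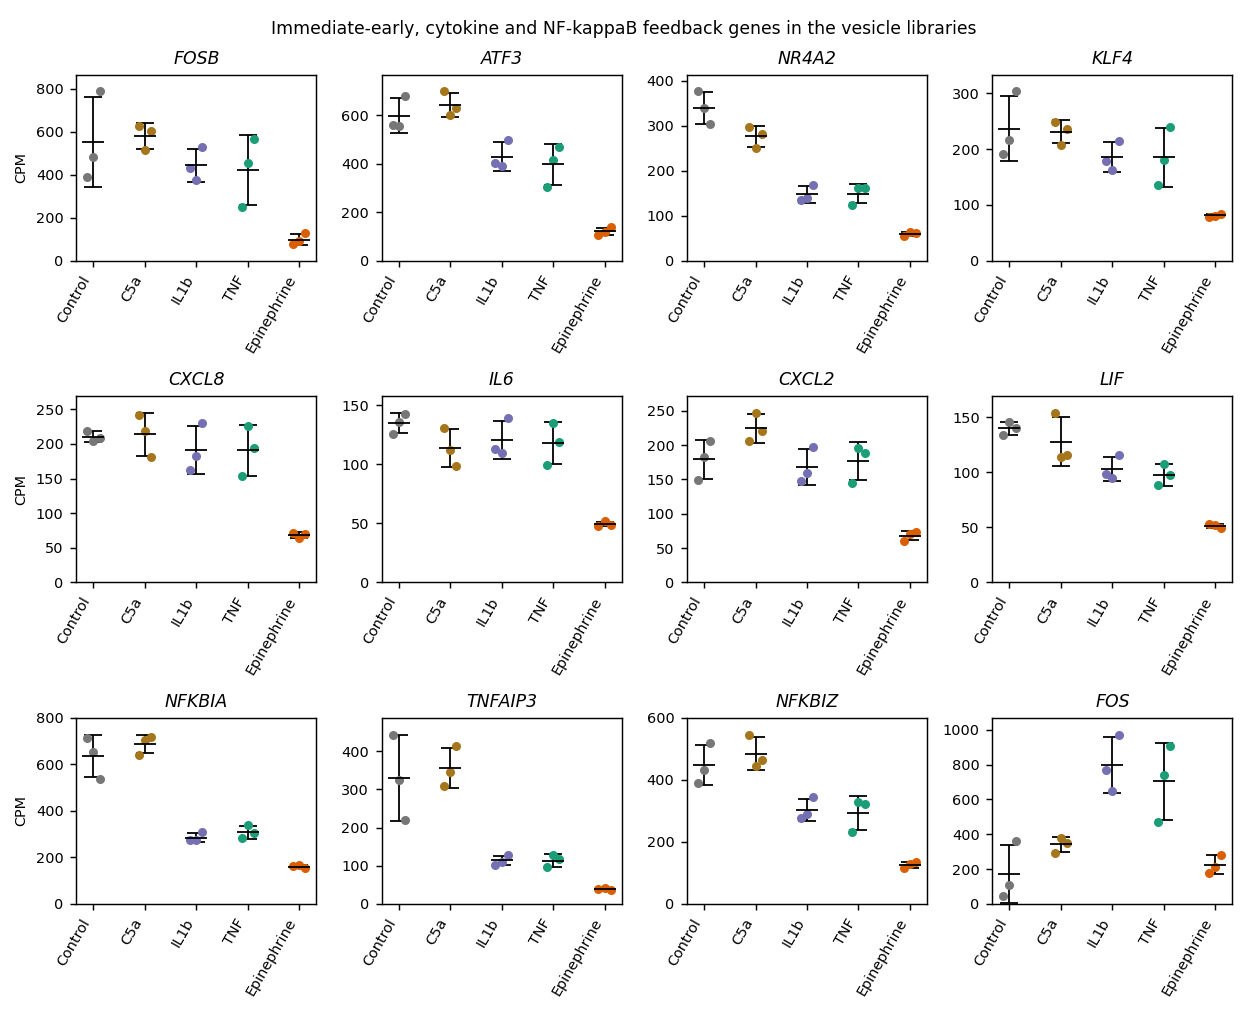
Levels in CPM (vertical axes, each from 0) of 12 early response, cytokine and NF-kappaB feedback genes in the vesicle libraries, grouped by the stimulus of the donor cells (horizontal axes); points are the 3 libraries, and bars the mean ± SD. In each panel except that of FOS the 3 EV-Epinephrine libraries lie below all other vesicle libraries; for FOS they lie below EV-TNF, EV-IL1b and EV-C5a but not below EV-Control.

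Inhibitors of NF-kappaB were lower than in EV-TNF, and EV-TNF in turn was lower than EV-Control. TNFAIP3, which encodes the ubiquitin editor A20 (chromosome 6, 137867188 to 137883312, plus strand), stood at 37.1, 39.7 and 42.1 CPM in EV-Epinephrine, at 95.9, 118 and 127 CPM in EV-TNF and at 220, 325 and 444 CPM in EV-Control. The 3 groups formed a descending order without overlap. Its log2 fold change between EV-Epinephrine and EV-TNF was -1.52 (SE 0.26, adjusted p 0.00591 by edgeR). NFKBIA, the inhibitor that holds NF-kappaB in the cytoplasm (chromosome 14, 35401511 to 35404749, minus strand), held 155, 161 and 165 CPM, 282, 305 and 338 CPM and 536, 655 and 715 CPM in the same groups. Its difference from EV-TNF was 1.92-fold (log2 fold change -0.94, SE 0.11, adjusted p 0.000368 by edgeR). NFKBIZ, a nuclear co-regulator of secondary NF-kappaB targets, stood at 115, 129 and 134 CPM in EV-Epinephrine and at 231, 322 and 328 CPM in EV-TNF (log2 fold change -1.22, SE 0.16, adjusted p 0.00114 by edgeR). These 3 were the only members of 16 NF-kappaB feedback genes that passed, where 3.14% of all genes fell. None was higher, and the list median was -0.12. Without EV-Control replicate 1 in the fit 5 passed, and 6 passed with only the 6 libraries. The subunit genes RELA and NFKB1 gave log2 fold changes of 0.02 and 0.04 and did not pass (adjusted p 0.845 and 0.859 by edgeR).

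Chemokine and cytokine genes were also lower than in EV-TNF, but for several EV-TNF did not differ detectably from EV-Control. CXCL8, the main attractant of neutrophils (chromosome 4, 73740506 to 73743716, plus strand), stood at 63.6, 70.3 and 71.9 CPM in EV-Epinephrine and at 153, 194 and 226 CPM in EV-TNF. EV-Control libraries held 204, 209 and 219 CPM, within the range of EV-TNF. The fall against EV-TNF was 2.79-fold (log2 fold change -1.48, SE 0.17, adjusted p 0.000447 by edgeR). IL6, a cytokine of the acute phase response (chromosome 7, 22725884 to 22732002, plus strand), held 47.9, 48.9 and 51.6 CPM in EV-Epinephrine against 99.3, 119 and 135 CPM in EV-TNF. Again the groups were far apart and EV-TNF lay near EV-Control, at 126, 136 and 143 CPM (log2 fold change from EV-TNF to EV-Epinephrine -1.25, SE 0.14, adjusted p 0.000393 by edgeR). EV-TNF against EV-Control gave -0.14 for CXCL8 and -0.20 for IL6, which did not pass (adjusted p 0.679 and 0.425 by edgeR).

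The neutrophil chemokine genes CXCL2 and CXCL3 are near-identical neighbours on chromosome 4, and reads may have been split between them. CXCL2 stood at 60.5, 70.3 and 73.9 CPM in EV-Epinephrine and 145, 189 and 196 CPM in EV-TNF (log2 fold change -1.37, SE 0.17, adjusted p 0.000646 by edgeR). CXCL3 stood at 1.53, 1.72 and 3.08 CPM against 5.7, 6.5 and 6.64 CPM (log2 fold change -1.58, SE 0.30, adjusted p 0.00597 by edgeR). Neither gene overlapped between the groups. LIF, a cytokine of the IL6 family, fell from 97.9 ± 9.95 to 51.3 ± 1.81 CPM (SD, n = 3; log2 fold change -0.93, SE 0.13, adjusted p 0.00168 by edgeR). IL1B, which encodes interleukin 1 beta, fell from 44.2 ± 5.25 to 22.8 ± 1.72 CPM (log2 fold change -0.95, SE 0.10, adjusted p 5.29e-06 by edgeR), and EV-Control held 73.7 ± 6.17 CPM.

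In all, 10 of the 32 endothelial activation genes tested fell and none rose, where 3.14% of all genes fell, with a median of -0.55. For 8 of the 10 the EV-Epinephrine mean was also below EV-Control. The other 2 were CCL5, a T cell chemokine, and TNFSF10, a death ligand, which stood between the control and EV-TNF means. CCL5 held 12.9 to 13.4 CPM in EV-Epinephrine, 17.8 to 22.8 in EV-TNF and 8.63 to 9.63 in EV-Control (log2 fold change from EV-TNF to EV-Epinephrine -0.57, SE 0.11, adjusted p 0.000134 by edgeR). The adhesion genes did not pass. ICAM1, which binds leukocyte integrins, stood at 87.6, 89.7 and 92.7 CPM against 110, 114 and 114 CPM in EV-TNF, apart but with a log2 fold change of -0.32 (SE 0.16, adjusted p 0.336 by edgeR). VCAM1 overlapped, at 8.17 to 9.24 and 8.7 to 10.9 CPM (log2 fold change -0.17, SE 0.41, adjusted p 0.893 by edgeR). SELE, the gene of E-selectin, was below 1 CPM in all 6 libraries. CCL2, the monocyte attractant, stood at 13.2 to 14.4 CPM against 25 to 28.6 CPM and missed the threshold (log2 fold change -0.95, SE 0.25, adjusted p 0.0575 by edgeR). CCL2 passed without EV-Control replicate 1, 2 or 3 (adjusted p 2.73e-14, 0.0412 and 0.0385), and ICAM1 without EV-Control replicate 1 (adjusted p 0.0128 by edgeR). With only the 6 libraries in the fit both passed (adjusted p 2.39e-12 for CCL2 and 2.34e-08 for ICAM1 by edgeR). CCL2 also passed with all 30 libraries (adjusted p 0.0129 by edgeR) and by DESeq2 (adjusted p 0.00107). It passed in 8 of 18 other settings, and ICAM1 in 2 of 18. CSF2, CSF3 and CXCL10 also did not pass (adjusted p 0.941, 0.696 and 0.726 by edgeR). The TNF gene was not tested, with at most 1 count in any of the 6 libraries.

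No listed target of cyclic AMP and CREB rose in EV-Epinephrine against EV-TNF. Of 25 genes tested 8 fell, where 3.14% of all genes fell, and the list median was -0.34. All 8 were lower than in each of the 4 other vesicle groups, which held for 1.32% of all genes. NR4A2, an orphan nuclear receptor (chromosome 2, 156324432 to 156342348, minus strand), stood at 54.9, 61.5 and 63.4 CPM in EV-Epinephrine, 124, 162 and 162 CPM in EV-TNF and 303, 339 and 376 CPM in EV-Control. These were 3 separate ranges in descending order, and EV-Epinephrine was 2.49-fold below EV-TNF (log2 fold change -1.32, SE 0.14, adjusted p 0.00021 by edgeR). NR4A1 ran from 141 to 156 CPM against 242 to 275 CPM (log2 fold change -0.81, SE 0.11, adjusted p 0.0011 by edgeR). NR4A3 was apart too, at 1.63, 1.78 and 2.64 CPM against 4.05, 4.33 and 4.43 CPM, but did not pass (log2 fold change -1.07, adjusted p 0.675 by edgeR, and 0.000418 with only the 6 libraries). Its EV-Control libraries held 28.6, 82 and 139 CPM, far above both groups and far from each other.

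Other members of that list were the kinase SIK1, which restrains CREB coactivators, and ID3, a dominant-negative helix-loop-helix protein. SIK1 stood at 66.7 to 77.2 CPM against 99.1 to 122 CPM in EV-TNF (log2 fold change -0.64, SE 0.098, adjusted p 0.00265 by edgeR), and ID3 at 224 to 238 against 357 to 393 CPM (log2 fold change -0.67, SE 0.098, adjusted p 0.00216 by edgeR). PDK4, which turns off pyruvate dehydrogenase, stood at 43.7, 46.1 and 48.2 CPM against 68.5, 74.2 and 88.6 CPM (log2 fold change -0.74, SE 0.17, adjusted p 0.0336 by edgeR). The PDK4 call was lost on leaving out any of EV-Epinephrine replicates 1, 2 and 3 and EV-TNF replicates 2 and 3, with adjusted p of 0.0924, 0.107, 0.118, 0.0739 and 0.129 by edgeR. CREM and PDE4D, also cyclic AMP targets, gave 0.02 and 0.04 on the log2 scale and did not pass. The TNF receptor gene TNFRSF1A overlapped, at 300 to 318 and 283 to 304 CPM (log2 fold change 0.08, SE 0.034, adjusted p 0.149 by edgeR).

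The 10 largest falls by the naming rule were those of FOSB, ATF3, CXCL3, C11orf96, MIR23AHG, TNFAIP3, CXCL8, OSR2, CXCL2 and RRAD. RRAD, a small GTPase, held 9.92, 9.93 and 10.1 CPM in EV-Epinephrine and 18.6, 26.2 and 30.6 CPM in EV-TNF (log2 fold change -1.33, SE 0.17, adjusted p 0.000638 by edgeR). C11orf96 stood at 6.22 to 7.32 against 14.7 to 23.3 CPM (log2 fold change -1.55, SE 0.29, adjusted p 0.0105 by edgeR), a call lost without EV-Epinephrine replicate 1 (adjusted p 0.0575). MIR23AHG, the host transcript of a microRNA cluster, stood at 26 to 38.7 against 72.6 to 97.3 CPM (log2 fold change -1.53, SE 0.31, adjusted p 0.016 by edgeR). It was lost without EV-Epinephrine replicate 1 or 2 or EV-TNF replicate 2 or 3 (adjusted p 0.0791, 0.0767, 0.059 and 0.0554 by edgeR). OSR2, a zinc finger factor, had log2 fold change -1.43 (SE 0.35, adjusted p 0.044 by edgeR) and lost its call without EV-Epinephrine replicate 1, 2 or 3, EV-TNF replicate 2 or 3 or EV-Control replicate 2 (adjusted p 0.146, 0.145, 0.104, 0.0933, 0.151 and 0.0609). Whether counting used the strand is not given in the sources used here. FOSB overlaps ERCC1, IL6 overlaps STEAP1B, LIF overlaps LIF-AS1 and the IFIT genes overlap LIPA, each on the opposite strand, and reads of such pairs cannot be told apart. Below the 5 CPM limit, and chosen after its values were seen, TREM1, a receptor that amplifies inflammation in myeloid cells, held 0.105, 0.116 and 0.237 CPM in EV-Epinephrine and 1.24, 1.66 and 2.53 CPM in EV-TNF (adjusted p 1.3e-07 by edgeR). The EV-Epinephrine values are near the level of 3 counts in a library (0.16 to 0.18 CPM), so no fold is given for TREM1.

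Some promoters of these genes held the letters that NF-kappaB or CREB is known to bind. RefSeq start sites (GRCh38.p14) were found for 11278 of 15910 tested symbols, giving 16277 windows of 250 bases upstream of a start, and each motif was searched on both strands. The NF-kappaB consensus occurred in 6.17% of these windows, 5.21% of all promoters in the table and 16 of 31 windows of the activation list (51.6%). It was in 4 of 8 windows of the lower members of that list (50%) and in 4 of 4 windows of the 3 lower feedback genes. The core TGACG, which is part of the cyclic AMP element TGACGTCA, was in 27.3% of all tested windows and 21.2% of all promoters. On the immediate-early list it was in 13 of 20 windows (65%) and in 7 of 13 windows of the lower members (53.8%). On the cyclic AMP list it was in 13 of 52 windows (25%). Over all genes that fell the shares were 7.45% and 23.8%, and over all that rose 5.6% and 24.6%. Windows of ATF3 and NR4A1, 2 each, held no TGACG, and those of CXCL8 and IL1B no NF-kappaB consensus. Of 7 windows of the cyclic AMP genes that fell 3 held TGACG (42.9%) and 0 held the full TGACGTCA, which was in 2.45% of all tested windows. Stretches of 60 bases are shown because they hold these matches next to genes with large falls, each 5′ to 3′ on the strand of its gene, with the match in capitals. They lie at chr14:35404796-35404855 (minus strand) for NFKBIA, chr3:101827742-101827801 (plus) for NFKBIZ and chr19:45467908-45467967 (plus) for FOSB. The capitals mark the NF-kappaB consensus in the first 2 and TGACG in FOSB, and no binding was measured.
NFKBIA: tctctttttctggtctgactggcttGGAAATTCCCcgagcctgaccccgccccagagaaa
NFKBIZ: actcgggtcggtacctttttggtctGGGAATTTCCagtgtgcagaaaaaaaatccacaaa
FOSB: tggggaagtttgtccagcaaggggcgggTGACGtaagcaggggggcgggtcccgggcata

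Interferon-stimulated genes were lower in EV-Epinephrine than in EV-TNF but mostly above the vesicle control. Of 42 genes tested, 30 fell and none rose, where 3.14% of all genes fell, with a median of -0.25. For 25 of the 30 the EV-Epinephrine mean lay between those of EV-Control and EV-TNF. The same placement was found for 1 of the 12 immediate-early and 2 of the 10 activation genes that fell, and the difference between lists was not tested. Against EV-Control, 34 of the 42 were higher in EV-TNF (5.90% of all genes) and 27 in EV-Epinephrine (9.12% of all genes), comparisons that share the control libraries. IFIT2, an RNA-binding antiviral protein (chromosome 10, 89283694 to 89309276, plus strand), stood at 115, 116 and 122 CPM in EV-Epinephrine, 166, 167 and 179 CPM in EV-TNF and 83.8, 89.9 and 94.3 CPM in EV-Control. The ranges did not overlap, and the difference from EV-TNF was 1.45-fold (log2 fold change -0.54, SE 0.044, adjusted p 1.12e-13 by edgeR). Its neighbour IFIT3 is of the same family, and whether reads were split between them was not tested. IFIT3 held 237, 243 and 253 CPM, 341, 351 and 377 CPM and 174, 179 and 183 CPM in the same order (log2 fold change -0.54, SE 0.044, adjusted p 2.65e-10 by edgeR).

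RSAD2, an antiviral enzyme that makes a chain-terminating nucleotide, stood at 76.8, 87.2 and 90.5 CPM against 134, 140 and 149 CPM in EV-TNF (log2 fold change -0.73, SE 0.053, adjusted p 2.7e-14 by edgeR). USP18, which removes ISG15 from proteins and damps interferon signalling, stood at 58.1 to 61.9 against 90.2 to 94 CPM, with EV-Control at 50.2 to 57.1 CPM (log2 fold change -0.62, SE 0.055, adjusted p 1.73e-12 by edgeR). So USP18 was 1.54-fold lower than in EV-TNF and just above the control range. OASL, an antiviral sensor cofactor, fell by 0.56 on the log2 scale (SE 0.042, adjusted p 1.16e-14 by edgeR), from 199 to 214 CPM in EV-TNF to 139 to 142 CPM in EV-Epinephrine. MX1, a dynamin-like GTPase that blocks viruses, stood at 787, 817 and 827 CPM against 1080, 1110 and 1110 CPM (log2 fold change -0.44, SE 0.057, adjusted p 0.000595 by edgeR). For ISG15, a ubiquitin-like modifier at 344 to 376 against 397 to 451 CPM, the adjusted p was 0.00648 by edgeR and rose to 0.194 with all 30 libraries in the fit (log2 fold change -0.22, SE 0.048). The antigen-presentation genes HLA-B and HLA-C did not pass, at -0.07 each on the log2 scale.

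**Figure D2:**
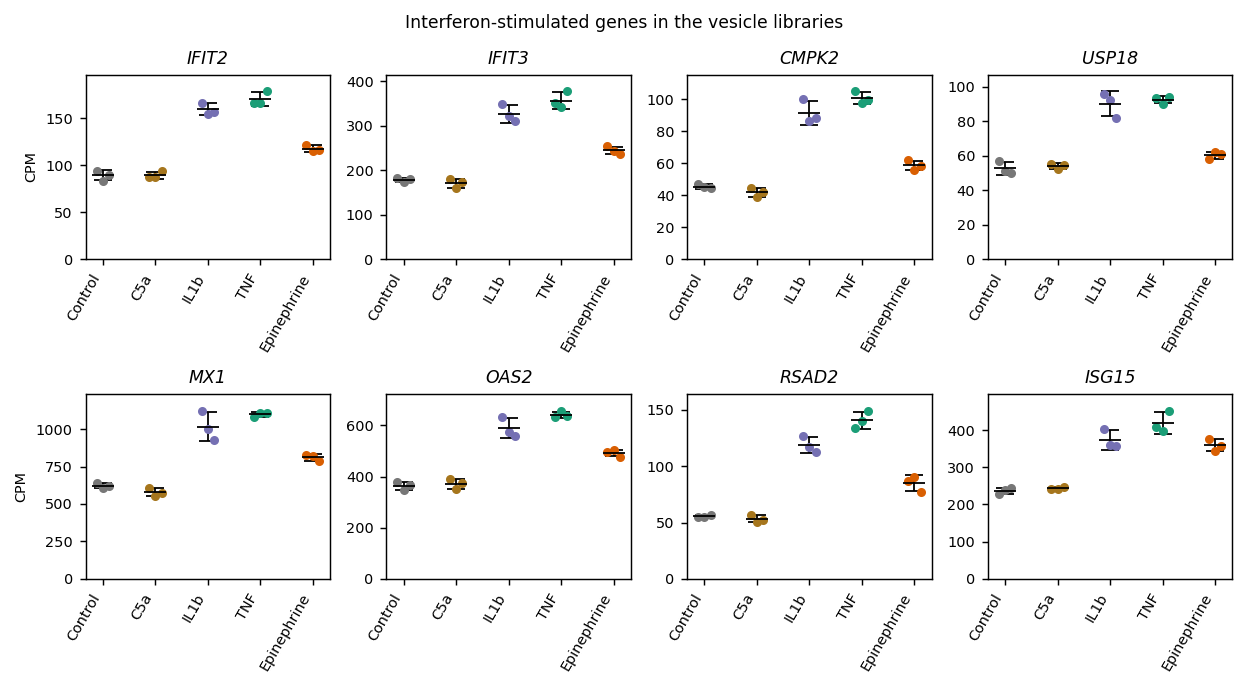
Levels in CPM (vertical axes, each from 0) of 8 interferon-stimulated genes in the vesicle libraries, grouped by the stimulus of the donor cells (horizontal axes); points are the 3 libraries, and bars the mean ± SD. The EV-Epinephrine libraries of IFIT2 lie at 115 to 122 CPM, between EV-Control (83.8 to 94.3 CPM) and EV-TNF (166 to 179 CPM), and the other panels show this order of the means too.

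A sequence feature was common, though not general, in the interferon group. Start sites were found for 31 of the 42 tested genes and 21 of the 30 that fell, and 19 and 16 of these held it. The list was made of interferon-stimulated genes, so a high share was likely in advance and is not particular to this comparison. The core of the interferon-stimulated response element, GAAA and GAAA again with any pair of bases between, occurred within 250 bases upstream of a start in 22 of 39 windows of the list (56.4%) and in 18 of 27 windows of the members that fell (66.7%). Among all tested genes it was in 411 of 16277 windows (2.53%), and among all RefSeq promoters of the table in 3.02%. Of the 604 windows of all genes that fell 54 held it (8.94%), and of the 464 windows of all genes that rose 8 held it (1.72%). Stretches of 60 bases of 3 genes show it, in capitals, on either strand. They lie at chr10:89392482-89392541 for IFIT1, chr1:1013359-1013418 for ISG15 and chr10:89332410-89332469 for IFIT3, all on the plus strand of GRCh38.p14. Overlapping or neighbouring pairs of matches are seen in IFIT1 and ISG15, and the ISG15 and IFIT3 stretches precede internal starts of those genes, in introns of GENCODE 29 transcripts.
IFIT1: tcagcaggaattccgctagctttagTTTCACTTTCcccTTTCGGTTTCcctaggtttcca
ISG15: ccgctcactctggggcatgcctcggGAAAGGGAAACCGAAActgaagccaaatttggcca
IFIT3: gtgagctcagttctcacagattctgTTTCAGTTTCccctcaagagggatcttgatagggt

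Genes that were higher in EV-Epinephrine changed by smaller amounts, and matrix genes formed the largest listed group. FN1, fibronectin (chromosome 2, 215360440 to 215436172, minus strand), stood at 3600, 3670 and 3680 CPM in EV-Epinephrine and at 2930, 3010 and 3010 CPM in EV-TNF. EV-Control libraries lay between, at 3400 to 3450 CPM, so the groups were apart in both directions (log2 fold change from EV-TNF to EV-Epinephrine 0.29, SE 0.023, adjusted p 6.26e-14 by edgeR). The basement membrane collagen gene COL4A1 stood at 197, 199 and 202 CPM against 170, 174 and 177 CPM (log2 fold change 0.20, SE 0.036, adjusted p 0.000132 by edgeR). LAMC1, a laminin chain, stood at 548 to 553 against 468 to 482 CPM (log2 fold change 0.21, SE 0.029, adjusted p 7.06e-07 by edgeR). LOXL2, which links collagen fibres, stood at 328 to 342 against 276 to 283 CPM (log2 fold change 0.26, SE 0.034, adjusted p 1.2e-07 by edgeR). Of the 31 tested genes of matrix, YAP and TGF-beta responses 10 rose and 5 fell, with a median of 0.08. Over all genes 2.29% rose and 3.14% fell. The 10 that rose were FN1, LOXL2, TGFBI, LAMA4, LAMC1, TGFB1, COL4A1, COL18A1, COL4A2 and COL1A1, which encode matrix proteins, a collagen crosslinker and a growth factor. The 5 that fell were CCN2, ANKRD1, AMOTL2, TAGLN and THBS1, most of them targets of the YAP coactivator. CCN2 stood at 1770 to 1860 against 2280 to 2470 CPM (log2 fold change -0.39, SE 0.034, adjusted p 2.6e-08 by edgeR).

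HMGA1, an architectural chromatin protein (chromosome 6, 34236873 to 34246231, plus strand), stood at 449, 465 and 466 CPM in EV-Epinephrine against 323, 327 and 346 CPM in EV-TNF. EV-Control held 347 to 356 CPM, so the 3 EV-Epinephrine libraries were above all others compared (1.39-fold over EV-TNF, log2 fold change 0.47, SE 0.037, adjusted p 1.21e-13 by edgeR). ABCA1, which exports cholesterol from the cell, stood at 18.4, 19 and 19 CPM against 12.6, 12.8 and 13.6 CPM (log2 fold change 0.53, SE 0.11, adjusted p 0.000783 by edgeR). It was higher than in each other vesicle group, and EV-Control held 7.13 to 9.69 CPM. The largest rises by the naming rule included those of ZNF691, PTPRS, FOXD1, ADIRF-AS1, ZNF304, SNHG4, GNB1L, PPP2R2C and SYTL3, all with means under 15 CPM. ZNF691, a zinc finger gene, stood at 5.4, 6.01 and 6.87 CPM against 2.7, 3.66 and 3.92 CPM (1.78-fold, log2 fold change 0.83, SE 0.20, adjusted p 0.00422 by edgeR), a call lost without EV-TNF replicate 2 (adjusted p 0.0635). PTPRS, a receptor phosphatase, stood at 4.01, 5.63 and 5.75 CPM against 2.3, 3.11 and 3.71 CPM (log2 fold change 0.74, SE 0.22, adjusted p 0.0305 by edgeR). Its call was lost without EV-Epinephrine replicate 2 or 3 or EV-TNF replicate 2 or 3 (adjusted p 0.171, 0.146, 0.0869 and 0.214 by edgeR).

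Among the other large rises, those of ADIRF-AS1 (log2 fold change 0.73), SNHG4 (0.66) and GNB1L (0.63) passed with every single library left out. The factor FOXD1 (0.73) was lost without EV-Epinephrine replicate 1 (adjusted p 0.0648 by edgeR), and ZNF304 (0.67) without EV-TNF replicate 1 or 3 (0.0528 and 0.0516). PPP2R2C (0.63) was lost without EV-Epinephrine replicate 1, 2 or 3 or EV-TNF replicate 1 or 3 (adjusted p 0.113, 0.0801, 0.126, 0.0905 and 0.281 by edgeR). SYTL3 (0.62) was lost without EV-Epinephrine replicate 1, 2 or 3 or EV-TNF replicate 2 or 3 (0.0575, 0.184, 0.14, 0.185 and 0.15). Besides PTPRS, ZNF691 and ABCA1, the genes named for standing above each other vesicle group were KBTBD7 and ZNF488. KBTBD7 (0.56) was lost without EV-Epinephrine replicate 3 or EV-TNF replicate 3 (adjusted p 0.0593 and 0.0576 by edgeR), and ZNF488 (0.53) without EV-Epinephrine replicate 1 or 3 (0.0807 and 0.0587). The genes named for standing below each group were FOSB, ATF3, TNFAIP3, CXCL8 and CXCL3.

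**Figure D3:**
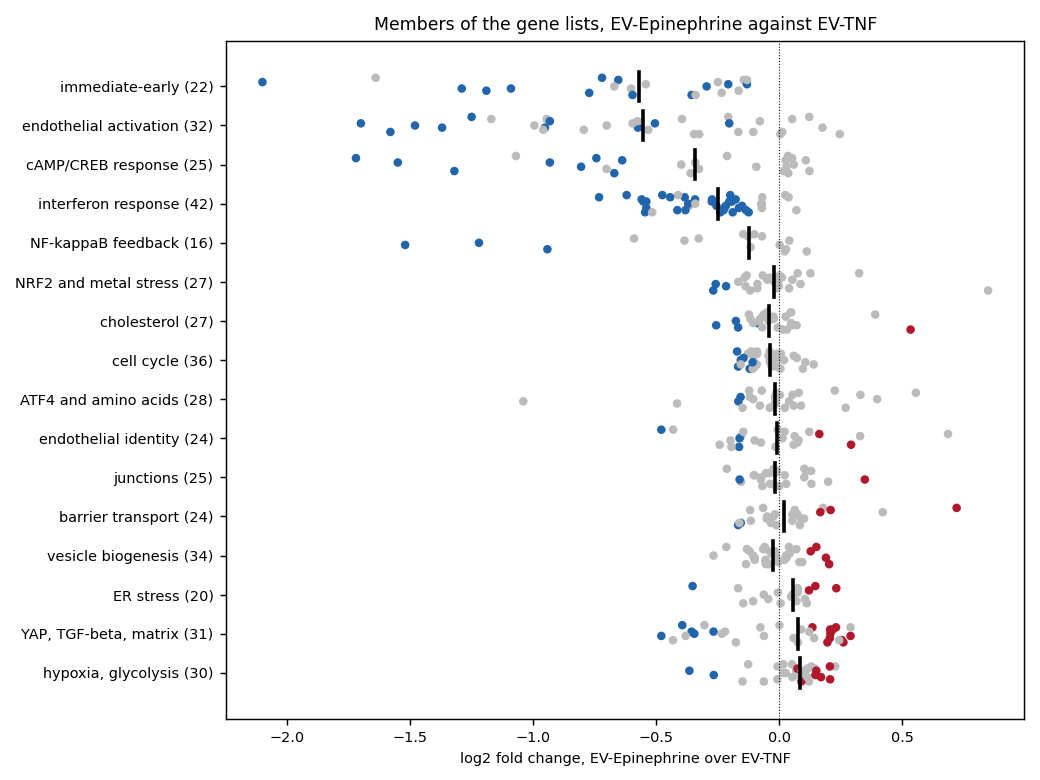
Log2 fold change of EV-Epinephrine over EV-TNF (horizontal axis) for each tested member of 16 gene lists (rows, with the number tested); red points rose, blue points fell and grey points did not pass at an adjusted p of 0.05 by edgeR, and black lines are list medians. The 5 lists at the top have medians from -0.57 to -0.12, and those of the other lists lie near 0.

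Genes of several other lists changed by small amounts. Of 30 hypoxia and glycolysis genes 7 rose and 2 fell (median 0.08), where 2.29% of all genes rose and 3.14% fell. LDHA, lactate dehydrogenase, stood at 993 to 1010 CPM against 862 to 877 CPM, with EV-Control at 976 to 996 CPM (log2 fold change 0.21, SE 0.027, adjusted p 8.82e-08 by edgeR), and GPI, phosphoglucose isomerase, rose by the same 0.21. The number that rose was 3 without EV-Epinephrine replicate 1 or 3 and 4 without EV-TNF replicate 2 or 3. Of 20 genes of the endoplasmic reticulum stress response 3 rose and 1 fell. The chaperone HSP90B1 stood at 887 to 902 against 746 to 773 CPM (log2 fold change 0.23, SE 0.038, adjusted p 0.000187 by edgeR). In the cholesterol list of 27, ABCA1 rose and 4 genes fell. None of the 36 cell cycle genes rose and 6 fell, with RRM2 of nucleotide synthesis at 527 to 533 against 587 to 604 CPM (log2 fold change -0.17, SE 0.03, adjusted p 7.49e-05 by edgeR). Of 34 genes of vesicle formation, 4 rose and none fell. These were ANXA2, CD81, LAMP1 and LAMP2, with ANXA2, a membrane-binding annexin, at 1890 to 1920 against 1630 to 1700 CPM (log2 fold change 0.20, SE 0.026, adjusted p 6.12e-08 by edgeR), and LAMP2 was lost without EV-Epinephrine replicate 2 or EV-TNF replicate 2 (adjusted p 0.116 and 0.0807).

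Most junction and barrier genes did not pass. In the junction list of 25, CGN rose and PECAM1 fell, near the shares over all genes (2.29% and 3.14%), and in the list of 24 barrier transport genes 3 rose and 2 fell. PECAM1, an endothelial adhesion molecule, stood at 174, 175 and 178 CPM against 195, 197 and 198 CPM in EV-TNF, with EV-Control at 148 to 153 CPM (log2 fold change -0.16, SE 0.038, adjusted p 0.0038 by edgeR). The call for CGN, cingulin, was lost without EV-Epinephrine replicate 2 or 3 or EV-TNF replicate 1, 2 or 3 (log2 fold change 0.35, adjusted p 0.0359 with all libraries and 0.189, 0.204, 0.107, 0.126 and 0.0721 without them, by edgeR). The tight junction genes CLDN5 (-0.16, SE 0.093), OCLN (0.13, SE 0.087) and TJP1 (0.03, SE 0.038), the cadherin CDH5 (0.02, SE 0.04) and the efflux pump ABCB1 (0.08, SE 0.038) did not pass, with adjusted p of 0.405, 0.48, 0.78, 0.846 and 0.223 by edgeR. Of 24 endothelial identity genes TIE1 and ENG rose and VWF, PECAM1 and CD34 fell. TIE1, an angiopoietin co-receptor, stood at 153, 155 and 165 CPM against 123, 130 and 133 CPM (log2 fold change 0.29, SE 0.041, adjusted p 7.06e-07 by edgeR). VWF, von Willebrand factor, stood at 41.7, 42.2 and 44 CPM against 56.9, 58.1 and 63.2 CPM, with EV-Control at 41.6 to 46.1 CPM (log2 fold change -0.48, SE 0.078, adjusted p 0.00012 by edgeR).

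Markers of other cell types and mitochondrial counts also moved with the groups. Of 5 tested pericyte markers ANPEP, CSPG4 and NOTCH3 rose and none fell, where 2.29% of all genes rose and 3.14% fell. The summed level of the list was 990 to 1010 CPM in EV-Epinephrine and 858 to 906 CPM in EV-TNF, ABCC9 was at 0 counts in all 6 libraries, and KCNJ8 did not exceed 3 counts. Of 5 tested epithelial markers KRT18 and MUC1 fell, with a sum of 302 to 304 against 329 to 348 CPM. No astrocyte, microglia or neuron marker passed. Mitochondrially encoded genes took 2.84% to 3.14% of counts in EV-Epinephrine and 2.36% to 2.8% in EV-TNF. None of the 13 passed, though 8 were higher without overlap, where 12.2% of all genes were, and their median was 0.21. Against EV-Control, 12 of the 13 were higher in EV-Epinephrine (9.12% of all genes) and 2 in EV-TNF (5.90%). The ribosomal protein list had 3 of 78 members lower, near the 3.14% over all genes. Its mean level stood at 0.17 log2 units above EV-Control in EV-TNF replicate 3 against -0.033 and -0.021 in the other 2 EV-TNF libraries. Their part in the differences above was not tested.

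**Figure D4:**
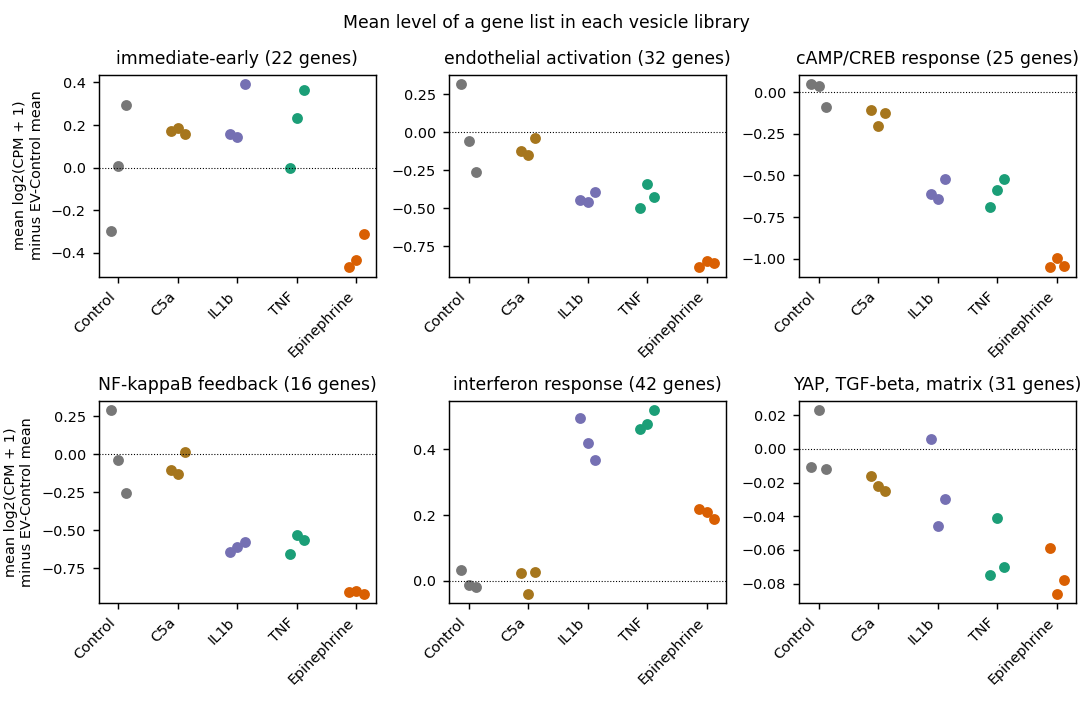
Mean log2(CPM + 1) over the tested genes of 6 lists in each vesicle library, less the EV-Control mean (vertical axes), by the stimulus of the donor cells (horizontal axes); each point is a library. The EV-Epinephrine libraries are lowest for the first 4 lists, and for the interferon list they lie at 0.19 to 0.22, between EV-Control and EV-TNF (0.46 to 0.52).

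The combined response of EV-Epinephrine and EV-TNF was read as the mean of both against EV-Control, a contrast independent of their difference. Such a mean can pass where only 1 group changed, so its calls are not all shared. CXCL8 passed (log2 fold change -0.88, SE 0.14, adjusted p 0.00116 by edgeR), though EV-TNF against EV-Control gave -0.14 (adjusted p 0.679 by edgeR). By this measure 1402 genes (8.81%) were higher and 1752 (11%) lower, 19.8% in all. With library totals alone it was 1820 higher and 1374 lower, so which direction prevailed depended on the scaling. On the interferon list 32 of 42 were higher and 2 lower, on the activation list 3 of 32 higher and 21 lower, and on the cyclic AMP list 1 of 25 higher and 17 lower. Of the activation genes, 12 were lower in EV-TNF and 20 in EV-Epinephrine when each group was set against EV-Control. Each group alone gave 3131 genes for EV-Epinephrine (19.7%, with 10.5% lower) and 2120 for EV-TNF (13.3%, with 7.42% lower) against the same EV-Control libraries. The mean level of the cyclic AMP list, in log2 units relative to EV-Control, was -0.69 to -0.52 in the EV-TNF libraries and -1.05 to -1.0 in the EV-Epinephrine libraries. For the activation list it was -0.50 to -0.34 and -0.89 to -0.85. The immediate-early list had no common fall of that size, since EV-TNF libraries ran from -0.004 to 0.37 and EV-Epinephrine libraries from -0.47 to -0.31, with EV-Control libraries themselves between -0.30 and 0.29.

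Cells given vesicles from IL1b-treated donors were compared with EV-Control for the same genes. These libraries do not enter the fold change between EV-Epinephrine and EV-TNF but do enter its estimate of spread, and the comparison was chosen after the data were seen. Of the 500 genes lower in EV-Epinephrine 155 (31%) were higher and 113 (22.6%) lower in EV-IL1b than in EV-Control, against 6.49% and 8.14% of all genes. Of the 365 higher genes 47 (12.9%) were higher and 86 (23.6%) lower. Over all 15918 genes the log2 fold changes of the 2 comparisons had a Pearson correlation of 0.0124 and a Spearman correlation of 0.0279, given as a description across genes that are not independent.

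Given directly, the same stimuli differed far more. Epinephrine against TNF in cells that took up the stimulus changed 7309 of 15908 genes (45.9%). Directions here depended on the scaling: 3603 genes were higher and 3706 lower, with a median of 0.03 over all genes, but 7935 and 1968 with library totals alone, where the median was 0.29. All 42 interferon genes fell there, with a median of -2.17, and 29 of 32 activation genes, with a median of -2.58. Of the 500 genes that were lower in EV-Epinephrine than in EV-TNF 498 were tested directly, and 267 (53.6%) were lower and 97 (19.5%) higher under Epinephrine than under TNF, against 23.4% and 23.2% of all genes tested in both. Of the 365 higher genes 363 were tested directly, with 119 (32.8%) higher and 134 (36.9%) lower. Across 15450 genes the vesicle and direct differences had a Pearson correlation of 0.102 and a Spearman correlation of 0.077.

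A test of whether the difference between the stimuli depended on the route, vesicles or direct, passed for 5684 of 16691 genes (34.1%). Adhesion and interferon genes had the wider gap directly. VCAM1 libraries held 11 to 28.7 CPM under Epinephrine and 1090 to 1210 CPM under TNF, a log2 fold change of -5.90, while the vesicle groups overlapped (difference between the log2 fold changes 5.73, adjusted p 6.58e-09 by edgeR). IFIT2 libraries held 56.8 to 78.1 CPM under Epinephrine and 1130 to 1210 CPM under TNF (difference 3.63, adjusted p 4.01e-18 by edgeR). Of the 10 matrix genes that rose through vesicles 6 were lower and 3 higher directly, and of the 5 that fell 4 were lower directly. With library totals alone 12 genes of that list were higher and 12 lower directly, against 7 and 18. FN1 had a log2 fold change of -0.55 directly and 0.29 by vesicles (difference 0.85, adjusted p 7.33e-09 by edgeR), and HMGA1, of no list, had -0.74 and 0.47 (difference 1.22, adjusted p 5.3e-28). CXCL2 stood at 204 to 250 CPM under Epinephrine and 137 to 245 CPM under TNF, with a direct log2 fold change of 0.33 that did not pass (adjusted p 0.218 by edgeR, and 0.0215 with library totals), against -1.37 by vesicles (difference -1.69, adjusted p 2.17e-05 by edgeR). PDK4 was higher under direct Epinephrine, at 144 to 186 against 83.5 to 89.9 CPM (log2 fold change 0.91), and lower by vesicles (difference -1.65, adjusted p 6.37e-07 by edgeR). On the cell cycle list 31 of 36 genes were higher under direct Epinephrine than TNF and 2 lower, and 35 and 1 with library totals. For NR4A2 the direct log2 fold change was -1.43 and the vesicle one -1.32, and the difference of 0.12 did not pass (adjusted p 0.668 by edgeR). ATF3 had -1.18 and -1.72 (difference -0.53, adjusted p 0.104 by edgeR, and 0.0101 with library totals).

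**Figure D5:**
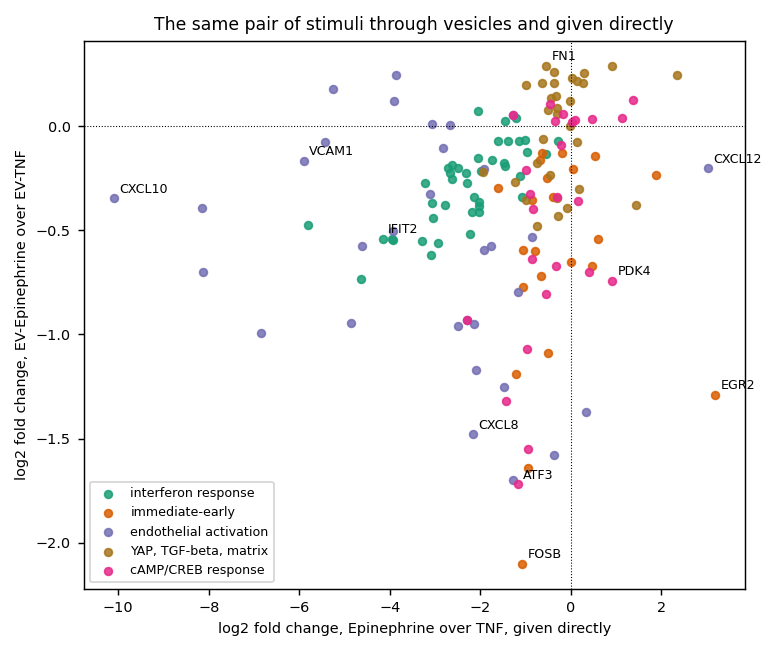
Log2 fold change of Epinephrine over TNF given directly (horizontal axis) and of EV-Epinephrine over EV-TNF (vertical axis) for the tested members of 5 gene lists; each point is a gene. Interferon genes lie to the left of 0 and close below 0 on the vertical axis, while FOSB and ATF3 lie lowest, at -2.10 and -1.72 by vesicles.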

How the data were processed

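RNA was sequenced from 30 libraries made with 1 ng of total RNA and a NEBNext Ultra kit, per the labels' protocols. The authors deposited 1 table of raw reads, by Ensembl gene, and the deposited values are whole counts that were not normalized. Per the submitters' processing notes FastQC, STAR, DESeq2 and R 4.4.1 were used with build hg38, with no role stated. The counting program, annotation release and use of strand are not given in the sources used here. Of 63147 lines, 4 lacked a gene ID (0.000789% to 0.00164% of a library's counts) and 3 IDs were repeated. They were left out or kept once, and 2 genes with broken records were dropped, leaving 63138 genes. Positions are those of GENCODE 29.

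Tests were run with edgeR 4.0.16 and limma 3.58.1 under R 4.3.3: filterByExpr, scaling by the trimmed mean of M-values, robust glmQLFit, quasi-likelihood tests, two-sided, with Benjamini-Hochberg adjustment over all genes tested and a threshold of 0.05. Vesicle comparisons used all 15 vesicle libraries, direct ones the 15 direct libraries, and the difference between them all 30. CPM divide a count by the library total times its factor. Another scaling moved the median log2 fold change of all genes from 0.00376 to -0.00317 (relative log expression) and 0.0226 (totals).

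The 10 largest rises and falls were named among genes with a symbol, no overlap between groups and a mean of at least 5 CPM in 1 of them, with up to 5 in each direction against all other vesicle groups, up to 3 in each direction for the interaction, up to 4 genes per list and a fixed set of activation, barrier and receptor genes. FOS, KLF4, HSPA5, IFIT1, IFIT3, MX1, ISG15, HMGA1, COL4A1, LAMC1, ID2, ID3, SIK1, C3, SYNE2 and MAT2A, other members given by name in lists, the printed promoter stretches and the comparison with EV-IL1b were chosen after values were seen. The comparison, lists, rules and tests were chosen with earlier results of these data known. Some genes that the rule names are not reported here. Stretches that touch an annotated exon were not shown.

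The vesicle fit was tested on simulated data with 15596 genes for EV-Epinephrine against EV-TNF. It found 53 of 100 genes changed by 0.5 and 85 of 98 changed by 1 on the log2 scale, with 9 false calls. Alternatives were other scalings, no filter, a mean of at least 50 counts, DESeq2 1.42.0, a log2 fold change above 1, a replicate block, fits of 6 or 30 libraries, leaving out each library, and a GC correction chosen after seeing the data. Over all genes same-numbered libraries did not deviate together, so numbers were not taken as pairs.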

Additional observations from a re-analysis of the deposited data

Results flagged for a closer look

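The difference between epinephrine and TNF was not the same through vesicles as directly for 5684 genes, by edgeR's test of the difference itself. For the 6 genes named for the widest gaps, direct TNF stood apart from the other 3 groups. CXCL10, a T cell chemokine, had a difference of 9.71 on the log2 scale (vesicle minus direct), with 1.26 ± 0.203 CPM in EV-TNF and 0.989 ± 0.324 in EV-Epinephrine against 293 ± 13.1 under TNF and 0.266 ± 0.23 under Epinephrine (SD, n = 3). TNFRSF9, a costimulatory receptor, had 8.67 (SE 1.12), with 18.7 ± 0.733 CPM under TNF and means below 1 CPM under Epinephrine and in both vesicle groups. TNFAIP6, a hyaluronan-binding protein, had 8.13 (SE 2.09), with 41.5 ± 3.22 CPM under TNF. Its vesicle means of 0.0173 and 0.0747 CPM, and the 0.0544 CPM of TNFRSF9 under Epinephrine, lie below the level of 3 counts in a library (0.141 to 0.18 CPM), so these 2 fitted values rest on few counts and give no size. The 0.266 ± 0.23 CPM of CXCL10 under Epinephrine is near that level too, so the size of its 9.71 (SE 0.67) is uncertain. In the other direction FAIM2 had -4.34, at 0.406 ± 0.25 CPM under TNF and 6.75 ± 0.749 under Epinephrine, with 9.08 ± 0.412 in EV-TNF and 7.02 ± 0.66 in EV-Epinephrine. CD248, a stromal surface glycoprotein, had -3.79 and ALPL, an alkaline phosphatase, -3.38, the latter at 1.09 ± 0.178 CPM under TNF and 10.2 ± 0.355 under Epinephrine.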

How the results depend on the processing

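Of 104 named genes that passed between EV-Epinephrine and EV-TNF, 70 kept their direction and call under every setting without a fold change limit. The other 34 lost the call in at least 1 of these settings, with none reversed. Of 24 that did not pass 9 passed somewhere. With single libraries left out CSF2 ran from -0.534 to 0.005 on the log2 scale (positive without EV-Epinephrine replicate 2), and CDH5 from -0.01 to 0.058 (-0.001 without EV-Epinephrine replicate 3 and -0.01 without EV-TNF replicate 3). For the causes of what follows, the cause was not tested. A log2 fold change above 1 left 8 higher and 45 lower genes between the groups, 0 and 22 against all other vesicle groups, 120 and 172 in the mean of both against EV-Control, 368 and 208 for each alone, 1633 directly and 1453 for the interaction. It left 5 activation, 0 interferon, 4 immediate-early, 3 cyclic AMP, 0 matrix and 0 hypoxia genes. Genes higher in EV-TNF than all other vesicle groups numbered 7 with no filter, 1 with DESeq2 and 1 with the replicate block. The block moved no other count by over 1.5 times, but PDK4 and SYTL3 lost their calls (adjusted p 0.0653 and 0.0523 by edgeR). On the immediate-early list replicate 1 was lowest and replicate 3 highest in each of EV-Control (-0.299 and 0.292), EV-TNF (-0.004 and 0.366) and EV-Epinephrine (-0.469 and -0.312), while 12 of its genes fell with the block too. Replicates 1 to 3 of EV-IL1b (0.157, 0.143 and 0.394) and EV-C5a (0.171, 0.187 and 0.158) did not follow this order. Over all genes same-numbered EV-Epinephrine and EV-TNF libraries had correlations of deviations of 0.000262 to 0.0321, with 1 of 3 highest with its own number. Hypoxia genes that rose numbered 4 with no filter, with all 30 libraries and with the GC correction. With only the 6 libraries, 522 genes were higher and 728 lower between the groups. In that fit 6 NF-kappaB feedback, 13 cyclic AMP, 14 activation and 35 interferon genes fell, but only 8 immediate-early genes. With all 30, 241 genes were higher in EV-Epinephrine than EV-TNF and 61 higher than in each other group.

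With each library left out in turn, higher genes ranged from 187 to 419 and lower from 326 to 622 between the groups, and from 60 to 112 and 132 to 270 against all other vesicle groups, with 0 to 1 and 0 to 0 for EV-TNF. The mean of both against EV-Control gave 964 to 1354 higher and 1262 to 1649 lower, EV-Epinephrine alone 2427 to 3136 and EV-TNF alone 1523 to 2220. Lists ranged from 8 to 14 (activation), 3 to 5 (NF-kappaB feedback), 25 to 33 (interferon), 4 to 13 (immediate-early), 6 to 12 (cyclic AMP), 9 to 11 (matrix) and 3 to 7 (hypoxia). The direct comparison ranged from 6605 to 7337 and the interaction from 5258 to 5740. In simulated data of this depth 53% of genes changed by 0.5 on the log2 scale were found, so smaller changes may be missed. The simulation changed few genes, in EV-Epinephrine only, and kept the other vesicle groups alike. Its share found therefore need not hold in these data.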

Other observations

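Some genes outside the lists, picked with their values in view, stood apart between the groups. ID2, a dominant-negative helix-loop-helix protein, held 7.12, 8.41 and 8.48 CPM in EV-Epinephrine, 18.5, 18.8 and 19.1 CPM in EV-TNF and 41.8, 52.5 and 54.5 CPM in EV-Control (log2 fold change from EV-TNF to EV-Epinephrine -1.24, SE 0.11, adjusted p 2.65e-10 by edgeR). C3, the central complement component, held 67.3 to 68.1 CPM in EV-Epinephrine and 105 to 112 CPM in EV-TNF, with EV-Control at 80 to 90.1 CPM (log2 fold change -0.69, SE 0.052, adjusted p 1.16e-14 by edgeR). SYNE2, which links the nuclear envelope to actin, stood at 188 to 214 against 289 to 320 CPM (log2 fold change -0.58, SE 0.04, adjusted p 6.29e-14 by edgeR). MAT2A, which makes S-adenosylmethionine, stood at 240 to 252 against 183 to 204 CPM, with EV-Control at 154 to 156 CPM (log2 fold change 0.35, SE 0.042, adjusted p 3.18e-08 by edgeR). Of 27 NRF2 and metal stress genes NQO1, FTL and TXNRD1 fell and none rose, FTL, the ferritin light chain, from 1510 to 1560 CPM in EV-TNF to 1250 to 1320 CPM in EV-Epinephrine. Of 417 zinc finger genes with a ZNF symbol 8 rose and 2 fell, below the shares over all genes (2.29% and 3.14%). Over 15392 genes with a value, the log2 fold change of EV-Epinephrine over EV-TNF had a Spearman correlation of 0.0171 with gene length and 0.0895 with GC content.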
